A study of Mus musculus with 8 samples.

Results

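The genes described here are Sh3gl2, Ap2s1, Ap2a2, Atp6v1a and Synpr, 5 genes whose proteins take part in re-forming, acidifying or building synaptic vesicles. They are 5 of the 2372 genes in the deposited table and were located there through their GRCm38 coordinates and strand, and all 5 matched a GENCODE M21 gene exactly. They were picked with their fold changes in view, so those fold changes describe them and are not tests of a list. The name suits 4 of the 5 in the sense that endocytosis and proton pumping are textbook roles of their products. Synpr encodes a vesicle membrane protein that is neither a coat nor a pump part.

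The RNA came from bulk medial prefrontal cortex (mPFC) of 8 untreated adult male mice on a C57Bl/6J background. In 4 of them (CamK2A-Cre;Gpr158flox/flox, called CaKO) the Cre recombinase is driven by the CamK2A promoter, which is active in forebrain excitatory neurons, and both Gpr158 alleles are floxed. The 4 controls were littermates with the same floxed alleles (Gpr158flox/flox) and no Cre, so loss of Gpr158 and the presence of Cre cannot be told apart. The series set out to find what underlies a shortage of glutamate vesicles when excitatory neurons lack GPR158, an orphan receptor. The table gives a normalised read count (reads divided by 1 factor per library, not per length) for each CaKO library. It also gives the authors' log2 fold change of CaKO over control, with its p and adjusted p. The control libraries' own values were not used here, and Gpr158 has 0 rows in the table, so the genotype was not checked against its transcript. Camk2a, the kinase that marks forebrain excitatory neurons, averaged 46287 ± 5735 normalised counts in CaKO (SD, n = 4).

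After a synaptic vesicle fuses, its membrane is taken back from the plasma membrane. The adaptor complex AP-2 gathers cargo and clathrin, endophilin bends the neck of the bud and brings in the enzymes that cut and uncoat it, and a proton pump, the V-ATPase, then acidifies the vesicle so that transporters can load glutamate. AP-2 and the V-ATPase also serve endosomes and lysosomes in every cell type of the cortex. In bulk tissue, fewer cells of a type and less RNA per cell cannot be told apart.

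The sequences before the transcription starts of 4 of the genes are shown because 3 of those genes had positive fold changes and Ap2s1 a negative one. They come from RefSeq (GRCm38.p6), read 5′ to 3′ on the gene's strand, and capitals mark motif matches named below (in Sh3gl2 the TGACGTCA alone, with the GC box ccgccc just before it left in lower case). For Sh3gl2 (chr4:85205408-85205437, plus strand) and Atp6v1a (chr16:44139373-44139402, minus strand) only 30 bases around a match are given, since an annotated first exon covers the window. The stretches for Synpr (chr14:13284530-13284779) and Ap2s1 (chr7:16738194-16738409), both on the plus strand, end where the first annotated exon begins.
Sh3gl2: atcacccgcccTGACGTCAgggtgtctctc
Atp6v1a: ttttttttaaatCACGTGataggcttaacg
Synpr: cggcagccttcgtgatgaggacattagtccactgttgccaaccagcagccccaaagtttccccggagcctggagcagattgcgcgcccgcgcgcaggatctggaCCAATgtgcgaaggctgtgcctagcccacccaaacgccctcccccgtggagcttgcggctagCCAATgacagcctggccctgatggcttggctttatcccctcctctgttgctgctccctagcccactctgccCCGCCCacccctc
Ap2s1: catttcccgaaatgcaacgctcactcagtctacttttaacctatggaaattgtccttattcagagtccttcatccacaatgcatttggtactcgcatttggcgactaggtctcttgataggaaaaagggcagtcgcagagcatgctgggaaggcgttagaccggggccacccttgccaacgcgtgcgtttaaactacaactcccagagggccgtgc

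Over the 250 bases before each RefSeq start, 5 motifs were searched on both strands, and no matches overlapped. The cyclic AMP response element TGACGTCA occurred in Sh3gl2, beginning 37 bases before its start, and in 1.55% of 32851 promoters. The E-box CACGTG occurred in Atp6v1a, beginning 131 bases before its start, and in 6.02% of promoters. The CCAAT box occurred in Synpr and Ap2a2 and in 33.8% of promoters. The GC box GGGCGG occurred in Sh3gl2, Ap2a2 and Synpr and in 32.7% of promoters. The Synpr matches lie before its first RefSeq start. A second RefSeq start of Synpr, 169178 bases downstream, had none of the 5 motifs before it. TATAAA, present in 12.4% of promoters, was found in none of these 5 genes, and none of the 5 motifs was in the Ap2s1 window. These are matches of letters and do not show that a factor binds.

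The libraries differ in a way that touches several of the genes. Over the listed genes the CaKO libraries held 2832931 to 3183638 reads, and total depth is unknown. Among the 2047 genes of the table that entered the authors' adjustment, CaKO replicate 3 was the lowest of the 4 CaKO libraries in 60.0% of those with a negative fold change. It was the highest of the 4 in 49.2% of those with a positive one. Without replicate 3, by an approximation from the deposited values, 180 of the 419 calls remained, against 296 to 326 without any other CaKO library. For the 5 genes, and for other vesicle cycle genes and markers where a call or the size of the fold change turns on it, the value without replicate 3 is given below.

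Sh3gl2 rose in CaKO and Ap2s1 fell, and the remaining 3 genes had positive fold changes that did not pass the adjustment over all genes. In all, 1.27% of the 12938 genes in the adjustment were called higher and 1.97% lower at an adjusted p below 0.05. At an unadjusted p below 0.05, 7.14% had positive and 8.68% negative fold changes. Since the genes were chosen on this contrast, nothing is read from their own share.

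**Figure D1:**
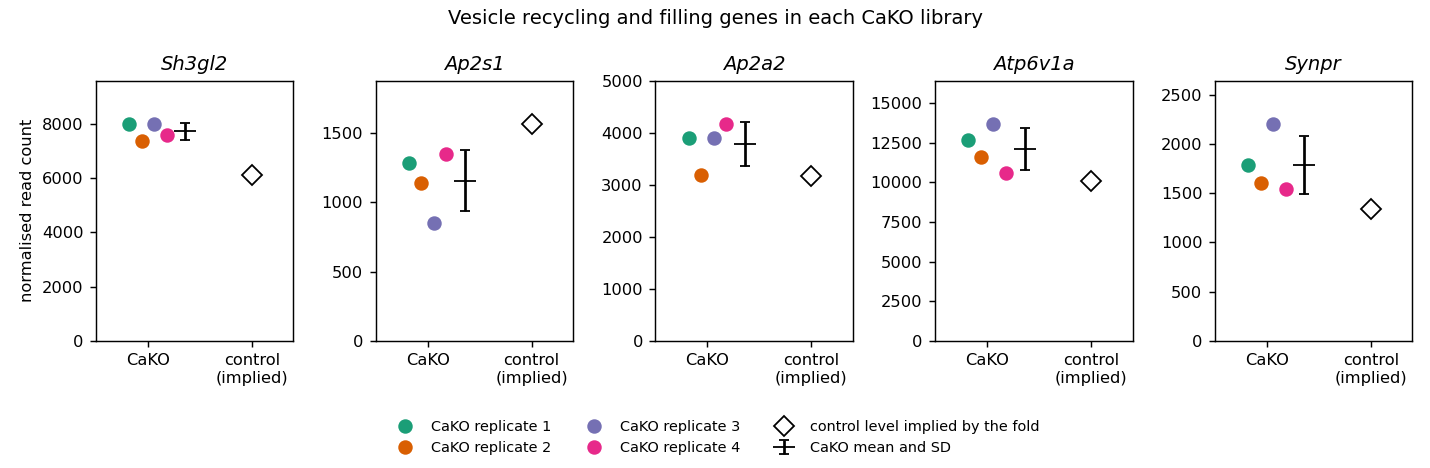
Normalised read count (y axis, from 0, a scale for each gene) of the 5 genes in each CaKO library, with the mean and SD of the 4 (n = 4). The open diamond is the control level implied by the authors' fold change, not a measured library. All 4 CaKO libraries lie below it for Ap2s1 and above it for the other genes, with Ap2a2 in replicate 2 (3196) close to it (3174). This level follows from the fold change on which the genes were chosen. All 4 libraries also lay on the same side of it for every other vesicle cycle gene in the table, so this is not particular to these 5.

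Sh3gl2 encodes endophilin A1, the brain endophilin that curves the membrane of the endocytic bud and recruits synaptojanin and dynamin. It spans chr4:85205126-85639195 (plus strand), with 6551 bases of exon. Its normalised counts were 8002, 7377, 8002 and 7609 in CaKO replicates 1 to 4. These values were close together, with a coefficient of variation of 3.98% against a median of 9.77% over the 617 genes in the adjustment averaging at least 1000. The control level that the authors' fold change implies is 6113, below every CaKO library. Sh3gl2 was 1.27-fold higher in CaKO, as the authors' deposited table has it (log2 fold change 0.34, 95% interval 0.17 to 0.51, adjusted p = 0.00769). Its call was kept without each CaKO library in turn, at log2 fold changes of 0.33 to 0.37, and without replicate 3 it was 0.33. No other gene's exons overlap it, and no near-identical copy was found.

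The other endophilin with a row did not go the same way. Sh3glb1, endophilin B1, which acts in autophagy and at mitochondria as well as in endocytosis, had a CaKO mean of 1363 ± 126 normalised counts (SD, n = 4). The authors' deposited table shows that it fell, with a log2 fold change of -0.33 (adjusted p = 0.0456). That call ended without CaKO replicate 2, 3 or 4, at -0.33, -0.30 and -0.30. Of the 5 endophilin genes, Sh3gl1, Sh3gl3 and Sh3glb2 have no row, which means an unadjusted p of 0.05 or more or no place in the adjustment. Dnm2, the widely expressed dynamin that cuts the bud neck, did not pass, with the authors' deposited table giving -0.33 as its log2 fold change (adjusted p = 0.106). The neuronal dynamin Dnm1 and synaptojanin Synj1 have no row.

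Ap2s1 encodes the small sigma subunit of AP-2, part of the pocket that reads dileucine sorting signals. It spans chr7:16738410-16749294 (plus strand) and, at 1472 bases of exon, is the shortest of the 5. Its normalised counts were 1286, 1144, 854 and 1350 in CaKO replicates 1 to 4. Replicate 3 was the lowest, 0.56 below the mean of the other CaKO libraries on the log2 scale, and the coefficient of variation was 19.0%, against 3.0% from read counting alone. All 4 values lay below the implied control level of 1566. Ap2s1 was 1.35-fold lower in CaKO, as the authors' deposited table has it (log2 fold change -0.44, 95% interval -0.70 to -0.17, adjusted p = 0.0415). Without CaKO replicate 3 the log2 fold change was -0.31 and the call ended. It also ended without replicate 2, at nearly the full fold change (-0.43), while without replicates 1 and 4 it held at -0.49 and -0.52. At an unaltered fold change, going to 3 libraries would already end this call through the wider standard error.

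Ap2a2 encodes an alpha subunit of the same complex, which binds the phosphoinositides of the membrane and the accessory proteins of the coat. It spans chr7:141562173-141633011 (plus strand, 5663 bases of exon), and an antisense gene, Gm16982, covers 4.26% of its exons. Its normalised counts were 3909, 3196, 3900 and 4172 in CaKO replicates 1 to 4, so replicate 2 was the low one. Replicate 2 was only just above the implied control level of 3174. The authors' deposited table gives a log2 fold change of 0.26 (95% interval 0.065 to 0.45, adjusted p = 0.13), which did not pass. It was 0.24 without CaKO replicate 3 and 0.33 without replicate 2.

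The 2 AP-2 subunits with a row thus had fold changes of opposite sign, while Ap2a1, Ap2b1 and Ap2m1, the other subunits, have no row. The difference between Ap2s1 and Ap2a2 was not tested. Per kb of exon, the ratio of Ap2a2 to Ap2s1 was 0.79, 0.726, 1.19 and 0.803 in CaKO replicates 1 to 4. Replicate 3 was thus the only CaKO library with more Ap2a2 than Ap2s1 per kb of exon. By normalised counts, which are not set against length, Ap2a2 was the higher in every CaKO library.

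Atp6v1a encodes the A subunit of the V-ATPase, which holds the sites where the pump hydrolyses ATP. It spans chr16:44085402-44139705 (minus strand, 6044 bases of exon). Its normalised counts were 12686, 11598, 13679 and 10615 in CaKO replicates 1 to 4. Replicate 3 was the highest and replicate 4 the lowest, and all 4 were above the implied control level of 10080. Atp6v1a was at 1.21-fold the control level, as the authors' deposited table has it (log2 fold change 0.27, 95% interval 0.081 to 0.46, adjusted p = 0.0981), which did not pass. Without CaKO replicate 3 the log2 fold change was 0.21, and without replicate 4 it was 0.33 and would have passed.

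The pump's other subunits had fold changes of both signs. Of 25 V-ATPase subunits and accessory proteins, 4 have a row (16.0%, against 15.8% of all genes at an unadjusted p below 0.05) and 0 were called, against 3.24% of all genes. The 4 include Atp6v1a, chosen on this contrast, which raises the 16.0%. Besides Atp6v1a, the authors' deposited table lists the stalk subunit Atp6v1c1 at a log2 fold change of 0.21 (adjusted p = 0.274), which was 0.12 without CaKO replicate 3. The same authors' deposited table lists the rotor subunit Atp6v1d at -0.21 (adjusted p = 0.212) and Atp6v0c, the proton-carrying ring subunit, at -0.64 (adjusted p = 0.216). Atp6v0c had 633 normalised counts in CaKO replicate 3 and 1184 to 1458 in the other CaKO libraries, and a near-identical copy, Atp6v0c-ps2, could share its reads. The ratio of Atp6v1a to Atp6v0c per kb was 12.1 in CaKO replicate 3 and 4.63 to 5.48 in the others. For the catalytic subunit against Atp6v1c1 it stayed between 1.96 and 2.21.

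Synpr encodes synaptoporin, a relative of synaptophysin with a membrane-spanning vesicle domain, abundant at hippocampal mossy fibre terminals. It spans chr14:13284780-13616340 (plus strand) and has the longest exon sequence of the 5, 9439 bases. Its normalised counts were 1790, 1607, 2204 and 1548 in CaKO replicates 1 to 4. Replicate 3 was again the extreme library, 0.42 above the mean of the others on the log2 scale, and all 4 were above the implied control level of 1345. The authors' deposited table gives it a log2 fold change of 0.41 (95% interval 0.14 to 0.68, adjusted p = 0.073), which did not pass although it is the largest of the 4 positive ones. It was 0.29 without CaKO replicate 3, and 0.47 without replicate 4, where it would have passed.

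Among 17 genes of the synaptophysin, synaptogyrin, SCAMP and SV2 families, Sv2b was the only other with a row. With Synpr this makes 11.8%, against 15.8% of all genes at an unadjusted p below 0.05. Synpr was chosen on this contrast, which raises the 11.8%. Sv2b, a vesicle glycoprotein, had a CaKO mean of 13671 ± 847 normalised counts (SD, n = 4) and, as the authors' deposited table lists it, a log2 fold change of 0.19 (adjusted p = 0.161). Synaptophysin itself (Syp) has no row. Synpr is also made in olfactory, hippocampal and claustral tissue that a dissection could include. Of 12 markers of such tissue, Synpr among them, 3 have a row (25.0%, against 15.8% of all genes) and 8.33% were called, against 3.24%. Here too the choice of Synpr on this contrast raises the 25.0%. The authors' deposited table lists the other 2 as negative, Ntng2 at -0.47 (adjusted p = 0.0337) and Lhx2 at -0.27 (adjusted p = 0.298). Without CaKO replicate 3, Lhx2 was at -0.15. The part of such tissue in the Synpr values was not tested.

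**Figure D2:**
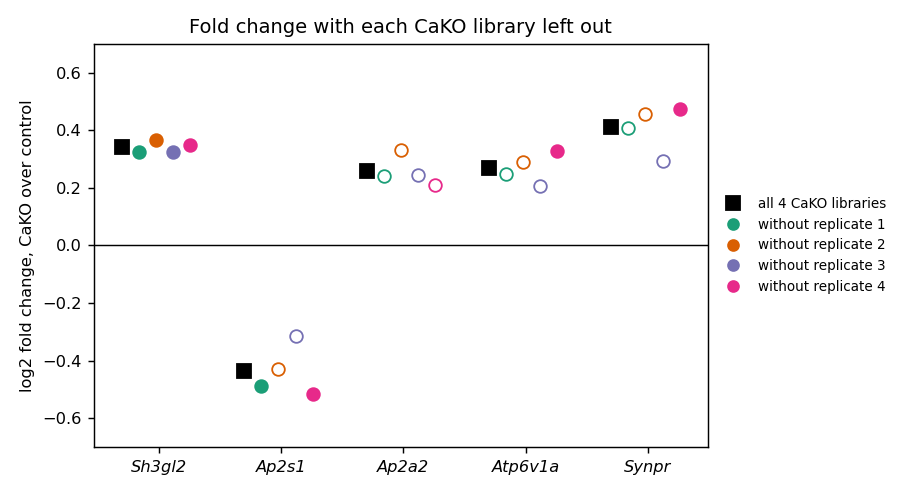
Log2 fold change of CaKO over control (y axis) for the 5 genes with all 4 CaKO libraries (black squares, as the authors deposited it) and with each left out (circles, filled where it passed). Sh3gl2 is filled without each library, at 0.33 to 0.37, and Ap2s1 lies nearest to 0 without replicate 3, at -0.31.

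The levels of the 5 genes in CaKO can be ordered per kb of exon. Atp6v1a was the highest, at 2009 ± 220 normalised counts per kb (SD, n = 4), followed by Sh3gl2 at 1183 ± 47.1. Ap2s1 (787 ± 150) and Ap2a2 (670 ± 73.9 normalised counts per kb) came next, and their ranges overlapped, from 580 to 918 for Ap2s1 and from 564 to 737 for Ap2a2. Synpr was the lowest at 189 ± 31.4, with no CaKO library near the range of Ap2a2. Behind these levels stood 859 to 1296 reads per library for Ap2s1 and 10187 to 13760 for Atp6v1a, the fewest and the most of the 5. Read counting alone gave a coefficient of variation of 0.91% to 3.0%.

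The share of genes called in the pathway around these genes was close to that of all genes. Of 147 other genes in 7 lists (AP-2 and clathrin adaptors, curvature and scission proteins, V-ATPase, vesicular transporters, vesicle membrane proteins, release proteins, and AP-1 and AP-3), 17 have a row. Of these, 3 had positive and 14 negative fold changes, which is 2.04% and 9.52% of the 147, against 7.14% and 8.68% of all genes in the adjustment. From the authors' deposited table, the 17 had a median log2 fold change of -0.32, against -0.22 over all 2047 genes listed. In total 1 rose and 4 fell, 3.4% against 3.24% of all genes. Of the 14 with negative fold changes, 8 were lowest in CaKO replicate 3, and all 3 with positive ones were highest there. The 5 genes described here, chosen on this contrast and mostly positive, were left out of these counts, which lowers the positive share. With them, 7 of 152 genes had positive and 15 negative fold changes at an unadjusted p below 0.05, and 4.61% were called.

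Among the other list genes, the gene that rose was Necap1, a partner of AP-2 found in clathrin-coated vesicles. Its CaKO mean was 3360 ± 291 normalised counts (SD, n = 4), and the authors' deposited table lists its log2 fold change as 0.30 (adjusted p = 0.0188). Its call ended without CaKO replicate 3 or 4, at 0.26 and 0.28. The other coat genes with a row did not pass: Fcho1, an early organiser of coated pits, Dab2, a cargo adaptor, the membrane-bending epsin Epn1 and the clathrin-binding Hip1 lay between -0.34 and -0.23 on the log2 scale, as the authors' deposited table lists them (adjusted p between 0.106 and 0.26). Without CaKO replicate 3, Epn1 was at -0.15. Clathrin itself (Clta, Cltb, Cltc) has no row.

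On the release side, Sept5, Rims1 and Stx1a fell, and the authors' deposited table lists them at log2 fold changes of -1.1, -0.35 and -0.46 (adjusted p = 2.46e-06, 0.0235 and 0.0479). They encode a vesicle-associated septin, an active-zone scaffold and a plasma membrane SNARE. Gp1bb and Gm49601 on the same strand cover 48.6% and 56.3% of the exons of Sept5. Reads in those shared parts cannot be assigned to Sept5 alone. Without CaKO replicate 3 only Sept5 kept its call (-0.96), with Rims1 and Stx1a at -0.32 and -0.33. The call of Rims1 also ended without replicate 2 (-0.31). That of Stx1a also ended without replicates 2 and 4, at no smaller a fold change (-0.46 and -0.47). Complexin Cplx1 did not pass, with the authors' deposited table giving -0.35 (adjusted p = 0.0642). None of the 11 vesicular transmitter transporters has a row, against 15.8% of all genes at an unadjusted p below 0.05. They include Slc17a7, which loads glutamate in cortical pyramidal neurons. Of the 15 subunits of AP-1 and AP-3, which sort vesicles at the Golgi and endosomes, 0 were called, against 3.24% of all genes, and the authors' deposited table puts Ap1m1 at -0.23 (adjusted p = 0.234) and Ap3b1 at -0.19 (adjusted p = 0.277).

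**Figure D3:**
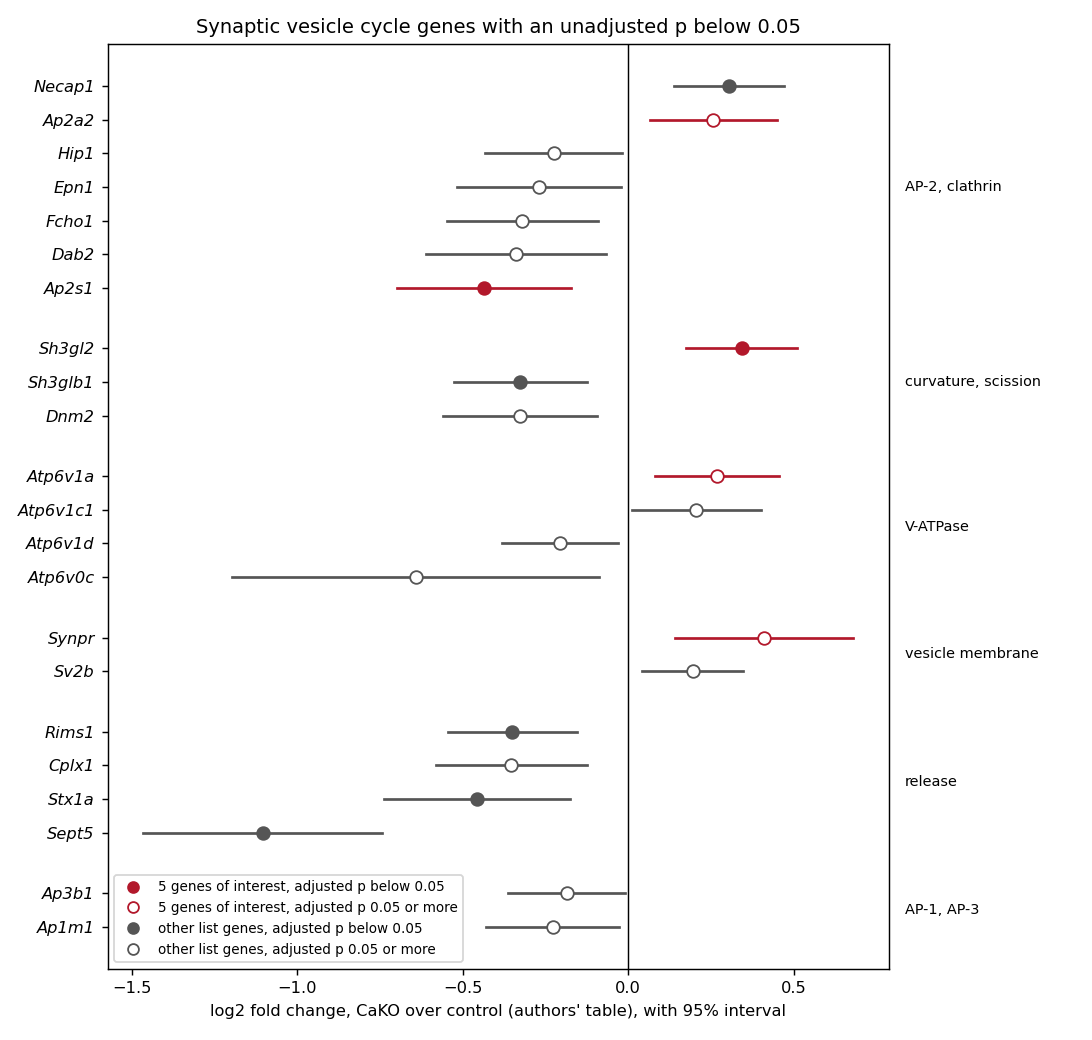
Log2 fold change of CaKO over control (x axis) with its 95% interval for the 22 vesicle cycle genes that have a row, grouped by list. Red marks the 5 genes described here and filled points an adjusted p below 0.05. Of the 22, 7 lie right of 0 and 15 left of it, and Sept5, at -1.1, lies farthest out.

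The direction of the 5 genes went with the base composition of their transcripts in 4 cases. The GC content of the longest transcript was 38.9% for Synpr, 42.9% for Sh3gl2, 44.6% for Atp6v1a, 53.8% for Ap2a2 and 56.2% for Ap2s1, against a median of 50.9% in the table. Of the listed genes in the adjustment, 401 were under 45% GC and 63.8% of these had positive fold changes, while 503 were at 55% or more and 67.8% of these had negative ones. Ap2a2, with a positive fold change, stood on the less frequent side, since 41.1% of the 610 genes from 50% to 55% GC were positive. CaKO replicate 3 followed the same property. Its median log2 difference from the other CaKO libraries was 0.097 under 45% GC and -0.25 at 55% or more. Exon length separated the genes less, with a median log2 fold change of -0.27 in the 428 genes under 2000 bases and -0.18 in the 526 of 6000 or more. The part of base composition in these results was not tested.

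**Figure D4:**
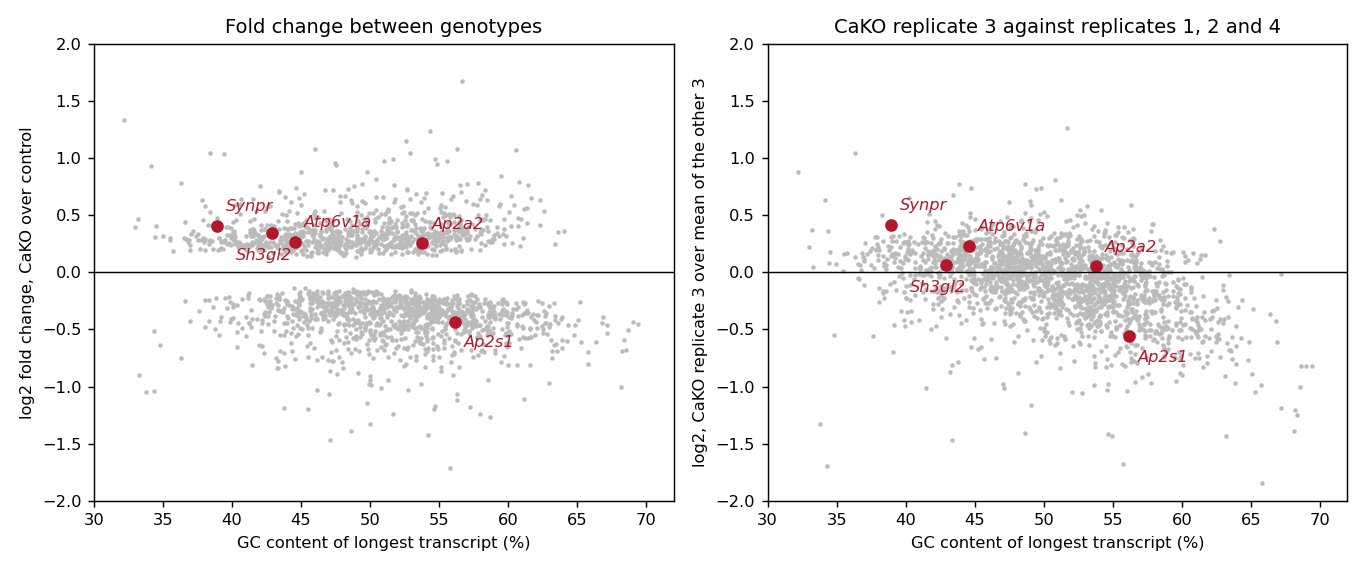
GC content of the longest transcript (x axis, percent) against the log2 fold change of CaKO over control (left) and the log2 ratio of CaKO replicate 3 to the mean of the other CaKO libraries (right), for the genes in the authors' adjustment (grey). Genes outside the axes number 2 on the left and 1 on the right. Synpr, Sh3gl2 and Atp6v1a lie at low GC and above 0 in both panels, and Ap2s1 at 56.2% GC lies below 0 in both, at -0.44 and -0.56.

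Several cell type markers fell as well, and the counts below stand against 8.68% of all genes with a negative fold change at an unadjusted p below 0.05 and 1.97% called lower. Of 13 pyramidal neuron markers, 5 have a row, all with negative fold changes, and the authors' deposited table shows a fall of Nrgn (-0.50, adjusted p = 0.0238) and Cck (-0.47, adjusted p = 0.0191). The summed level of those 5 was 52093 normalised counts in CaKO replicate 3 and 68300 to 72215 in the other CaKO libraries. Of 16 interneuron markers only the neuropeptide gene Npy has a row, at -0.48 as the authors' deposited table gives it (adjusted p = 0.0291). Of 10 mature oligodendrocyte markers, 9 have a row, all negative, and the authors' deposited table has Mobp, Mbp, Cnp and Mag falling, at -0.73, -0.68, -0.36 and -0.32. Of 10 astrocyte markers, 4 have a row, all negative, and Atp1b2 and Aldoc fell, listed in the authors' deposited table at -0.49 and -0.34. Endothelial markers have 2 rows of 7, both negative, with Ly6c1, whose copy Ly6c2 could share reads, listed at -0.39 by the authors' deposited table (adjusted p = 0.00481), and microglial ones 1 of 8. That microglial gene, Trem2, was positive in the authors' deposited table at 0.32 (adjusted p = 0.302). Without CaKO replicate 3, the calls of Atp1b2, Cck, Nrgn, Npy, Aldoc and Ntng2 ended, 6 of the 11 called markers, while 2, 4 and 0 ended without replicates 1, 2 and 4. Camk2a was at -0.12 without replicate 3, against -0.21 in the authors' deposited table. The part of cell composition in the results for the 5 genes was not tested.

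For each gene, the pair most like it across the CaKO libraries was taken by the root mean square difference of log2(value / own mean) over the 4 libraries, among 1810 genes averaging at least 100. The nearest to Sh3gl2 were Tnpo2 and Tbcd, at 0.0118 and 0.0165. The nearest to Ap2s1 were Cnot3 and Fastk (0.0126 and 0.0224). Ap2a2 was nearest to Acyp2 and Acaca (0.0292 and 0.0311), Atp6v1a to Rheb and B230209E15Rik (0.0154 and 0.0226), and Synpr to Snhg6 and Klf6 (0.0167 and 0.0179). These distances rest on 4 libraries of 1 genotype.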

How the data were processed

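RNA from the mPFC of 4 CaKO and 4 control mice was sequenced from poly-A-selected libraries, per the labels' protocols. Alignment was to GRCm38 (mm10, Ensembl 90) with TopHat2 2.0.12 and counting with HTSeq 0.6.1, per the submitters' processing notes, which also name DESeq2 1.30.1. The sources used here do not say whether counting used strand.

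The deposited signal values are read counts that the authors divided by a factor for each library, and not FPKM as the name has it: 100.0% of the values in each library are whole multiples of 1 step (tolerance 0.01). The deposited log2 fold changes are CaKO over control, since all 18 genes at 0 in every CaKO library are negative. The deposited p-values are all below 0.05 (highest 0.04994), and the adjusted ones match a Benjamini-Hochberg adjustment of 12938 genes to within a relative 0.005. For 325 genes the adjusted p is listed as 1, and they were treated as outside the adjustment. The exon lengths and gene positions are the authors' other columns.

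Genes were named from GENCODE M21 (2266 exact matches, 89 by at least 80% mutual overlap, 17 unmatched). The 5 genes, the lists and the tests were chosen with earlier results of these data known. The limma fit named as a possibility was not run, since no control library enters this work. "Rose" and "fell" follow the authors' adjusted p (threshold 0.05). Intervals are the fold change ± 1.96 standard errors implied by the p under a Wald test. A CaKO library was left out by holding the control level implied by the fold change and widening the standard error for 3 libraries. A call then needed a p no larger than 0.00162, the highest among called genes, and genes without a row could not gain one. The arithmetic was run on simulated data, where the fold changes match by construction and the dispersion was known and the same for every gene. That run cannot show whether the calls hold where a library widens the spread of a gene. Genes named are the 5, every listed pathway gene with a row by the rule (at most 6 per list beyond the calls), called markers, and the 2 most alike, while genes said to have no row were added after seeing the table, as were Camk2a, Lhx2, Trem2, the markers without each library and the summed marker levels. Near-identical copies are from BLAST 2.17.0 on transcripts (98% identity over 200 bases and 50% of either). Scripts used Python 3.11.15, pandas 2.3.3 and SciPy 1.17.1.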

Additional observations from a re-analysis of the deposited data

Results flagged for a closer look

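Of the 5 genes, the 17 other vesicle cycle genes with a row and the 14 cell type markers named with a value, 36 in all, 3 had 1 CaKO library that stood far from the other 3, by the gap to the nearest library divided by the whole range (above Dixon's 95% critical value for 4 libraries). Chance alone gives this in about 5% of groups of 4. Hip1 was high in replicate 4, at 963 normalised counts against 808 to 821 in the other CaKO libraries (ratio 0.92). Cnp was high in replicate 1, at 2560 against 2264 to 2285 (ratio 0.929). Lhx2 was low in replicate 3, at 666 normalised counts against 951 to 984 in the other CaKO libraries (ratio 0.896). None of the 5 genes described above had such a library.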

How the results depend on the processing

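No paired analysis was possible because the columns used hold CaKO libraries only. Every fold change of the 5 genes kept its sign under each alternative run, but this was fixed beforehand. For each gene all CaKO libraries lay on the same side of the implied control level, which was held unaltered. The stricter thresholds reused the deposited fold change. A Bonferroni adjustment ended the calls of Sh3gl2 (0.34) and Ap2s1 (-0.44), an adjusted p below 0.01 that of Ap2s1 (-0.44), and the median of the CaKO libraries in place of their mean that of Ap2s1 (-0.37). With each CaKO library left out, log2 fold changes ran from -0.52 to -0.31 for Ap2s1, from 0.21 to 0.33 for Atp6v1a, from 0.29 to 0.47 for Synpr, from 0.21 to 0.33 for Ap2a2 and from 0.33 to 0.37 for Sh3gl2. Counts of calls in the lists changed as follows. At an unadjusted p below 0.05 they were 7 for AP-2 and clathrin and 4 for the V-ATPase. These are 24.1% and 16.0% of the lists, against 15.8% of all genes in the adjustment. The lists of AP-2 and clathrin, curvature and scission, V-ATPase and vesicle membrane proteins hold the 5 genes, chosen on this contrast. That can only raise their counts and shares. Vesicle membrane proteins had 2 (11.8%), and AP-1 and AP-3 had 2 (13.3%). The calls at an adjusted p below 0.05 were 2, 0, 0 and 0 in that order, with 3.24% of all genes called. At an adjusted p below 0.01 the counts were 0 for AP-2 and clathrin, 1 for curvature and scission and 1 for release proteins, against 2, 2 and 3. The share of all genes at that threshold is not given here. With each CaKO library left out the counts ran from 0 to 2 for AP-2 and clathrin and from 1 to 2 for curvature and scission. They ran from 0 to 1 for the V-ATPase, from 0 to 1 for vesicle membrane proteins and from 1 to 3 for release proteins. Over all genes, 180 to 326 of the 419 calls were kept with a CaKO library left out. That count leaves out calls gained, which the list counts include. Those gained were Atp6v1a and Synpr without replicate 4 and Cplx1 without replicate 2. A CaKO mean of at least 10 changed none of the list counts. Except for the smaller number of libraries, the cause of these changes was not tested. Counting error, as a coefficient of variation, was at most 3.0% for the 5 genes, and the libraries' total depth is unknown.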
